A study of Homo sapiens with 9 samples.

Results

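The genes UGT2B15, UGT2B17, UGT2B7, UGT2B11, UGT2B28, AKR1C1, AKR1C2, AKR1C3, HSD3B1 and CYP17A1 belong to enzyme families with members that make androgens or remove them. The open chromatin around these genes was followed in 9 ATAC-seq libraries of VCaP, a human prostate cancer line. Peaks of all libraries that shared at least 1 bp were merged, and the regions overlapping 4 windows of hg19 were taken: the UGT2B cluster (chromosome 4, 69300001 to 70450000), the AKR1C cluster (chromosome 10, 4950001 to 5300000), HSD3B2 with HSD3B1 (chromosome 1, 119900001 to 120100000) and CYP17A1 (chromosome 10, 104560001 to 104630000). Of 94773 merged regions in the genome, 66 lay in these windows: 47 in the UGT2B window, 8 in the AKR1C window, 8 in the HSD3B window and 3 in the CYP17A1 window. Regions are named by their coordinates and window; hg19 gene models were not used here, so it is not said which gene, exon or promoter a region falls in.

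CYP17A1 converts pregnenolone into dehydroepiandrosterone, and the enzymes encoded by HSD3B1 and HSD3B2 carry that steroid to androstenedione. AKR1C3 reduces androstenedione to testosterone, while AKR1C2 and AKR1C1 reduce dihydrotestosterone to weaker diols. UGT2B15 and UGT2B17 attach glucuronic acid to dihydrotestosterone and its metabolites, which ends their action in prostate cells. UGT2B7, UGT2B11 and UGT2B28 belong to the same glucuronosyltransferase family.

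ATAC-seq reads out accessible DNA through the sites at which the transposase Tn5 can cut and tag it, and a peak is a stretch with many such sites. The 3 VCaP16 libraries came from a VCaP line resistant to enzalutamide, an androgen receptor antagonist, and grown with 16 µM of it. The 3 VCaP_ENZ libraries came from VCaP cells given 10 µM enzalutamide for 96 h, and the 3 VCaP_DMSO libraries from VCaP cells given the solvent. No VCaP16 library was without the drug and the doses differ, so line, dose and duration cannot be told apart. Whether replicates came from separate cultures is not stated in the labels, and the spread behind each p-value may therefore be technical. The lists held 53646 to 68921 peaks on chromosomes 1 to 22 and X, VCaP16 replicate 3 having the longest. They give positions and the authors' score but no read counts, so the depth is unknown. Peak lists name no genes, so the line was not checked against marker genes.

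The UGT2B and AKR1C windows hold gene families whose members are alike to different degrees. In RefSeq's order on GRCh38.p14 the protein-coding genes of the UGT2B cluster are UGT2B17, UGT2B15, UGT2B10, UGT2A3, UGT2B7, UGT2B11, UGT2B28 and UGT2B4, with pseudogenes between them, and those of the AKR1C cluster AKR1C1, AKR1C2, AKR1C3, AKR1C8 and AKR1C4. Of 11 genes looked up (the 10 above and HSD3B2), 9 had an entry in the RefSeq promoter table on GRCh38.p14, of which the 250 bases before the start were used. AKR1C3 and HSD3B1 had 2 entries each, and the most upstream start was taken. AKR1C1 (chr10:4963165-4963414, + strand) and AKR1C2 (chr10:5003858-5004107, - strand) are shown because they are almost the same: they share an unbroken run of 245 bases, and capitals mark what lies outside the shared run.
AKR1C1: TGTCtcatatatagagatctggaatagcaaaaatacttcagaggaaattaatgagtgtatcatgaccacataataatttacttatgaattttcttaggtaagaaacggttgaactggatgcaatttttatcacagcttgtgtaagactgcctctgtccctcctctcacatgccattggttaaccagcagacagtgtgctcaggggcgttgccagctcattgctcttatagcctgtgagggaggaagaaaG
AKR1C2: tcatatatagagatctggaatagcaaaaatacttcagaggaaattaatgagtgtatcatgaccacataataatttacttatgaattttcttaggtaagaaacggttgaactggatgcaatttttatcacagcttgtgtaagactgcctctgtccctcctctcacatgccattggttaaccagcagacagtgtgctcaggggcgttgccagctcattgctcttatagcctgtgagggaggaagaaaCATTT

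AKR1C3 matched AKR1C1 at 79.1% of aligned bases and shared no run over 12 bases with it. UGT2B15 matched UGT2B11 at 80.5% of aligned bases (longest shared run 25 bases) and UGT2B7 at 74.3% (12 bases). Reads from stretches as alike as those of AKR1C1 and AKR1C2 can map to more than one place. The sources used here do not say how such reads were treated, and mappability was not analysed. It is therefore not known which calls in either cluster are uncertain as to the copy they came from.

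Short motifs were searched on both strands of the same 250 bases. The motif AGAACA, one arm of the palindromic element the androgen receptor binds, occurred in 2 of the 9 genes found, against 12.4% of 34788 RefSeq promoters of that length. It lay in UGT2B15 (chr4:68670653-68670902, - strand), with its first letter 172 bases before the start, and in HSD3B2 (chr1:119414681-119414930, + strand), 9 bases before the start and there on the opposite strand, so that it reads TGTTCT. HSD3B2 is not one of the genes listed at the outset. Both are shown with the motif in capitals.
UGT2B15: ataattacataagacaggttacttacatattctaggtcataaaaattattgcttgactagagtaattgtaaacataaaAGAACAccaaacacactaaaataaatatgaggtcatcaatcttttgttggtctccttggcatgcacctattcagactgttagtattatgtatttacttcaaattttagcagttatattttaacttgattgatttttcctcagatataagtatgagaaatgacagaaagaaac
HSD3B2: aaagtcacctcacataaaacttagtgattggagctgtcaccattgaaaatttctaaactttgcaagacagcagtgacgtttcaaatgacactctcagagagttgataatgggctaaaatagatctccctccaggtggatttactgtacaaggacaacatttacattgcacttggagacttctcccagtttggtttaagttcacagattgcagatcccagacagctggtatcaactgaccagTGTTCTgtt

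The forkhead motif TGTTTAC, which factors of the FOXA type bind, occurred in 1 of the 9 (UGT2B15, 183 bases before the start, not overlapping AGAACA), against 2.98% of all promoters. CCAAT occurred in 5 of the 9 (UGT2B11, AKR1C1, AKR1C2, AKR1C3 and HSD3B2), against 32% of all promoters. A match of letters is not a bound site, and these bases could not be placed among the peaks because the builds differ.

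Open regions were spread unevenly over the windows. The windows together held 37.3 regions per Mb: 42.9 in the CYP17A1 window, 40.9 in the UGT2B window, 40 in the HSD3B window and 22.9 in the AKR1C window. The AKR1C window had the longest empty stretch, 156796 bp between the regions ending at 5137175 and starting at 5293972, with no peak in any library. In the UGT2B window the longest gap was 92904 bp, between 69435177 and 69528082, against a median gap of 16349 bp there. The map of calls shows the same columns of calls in all groups, with single calls scattered between them.

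**Figure D1:**
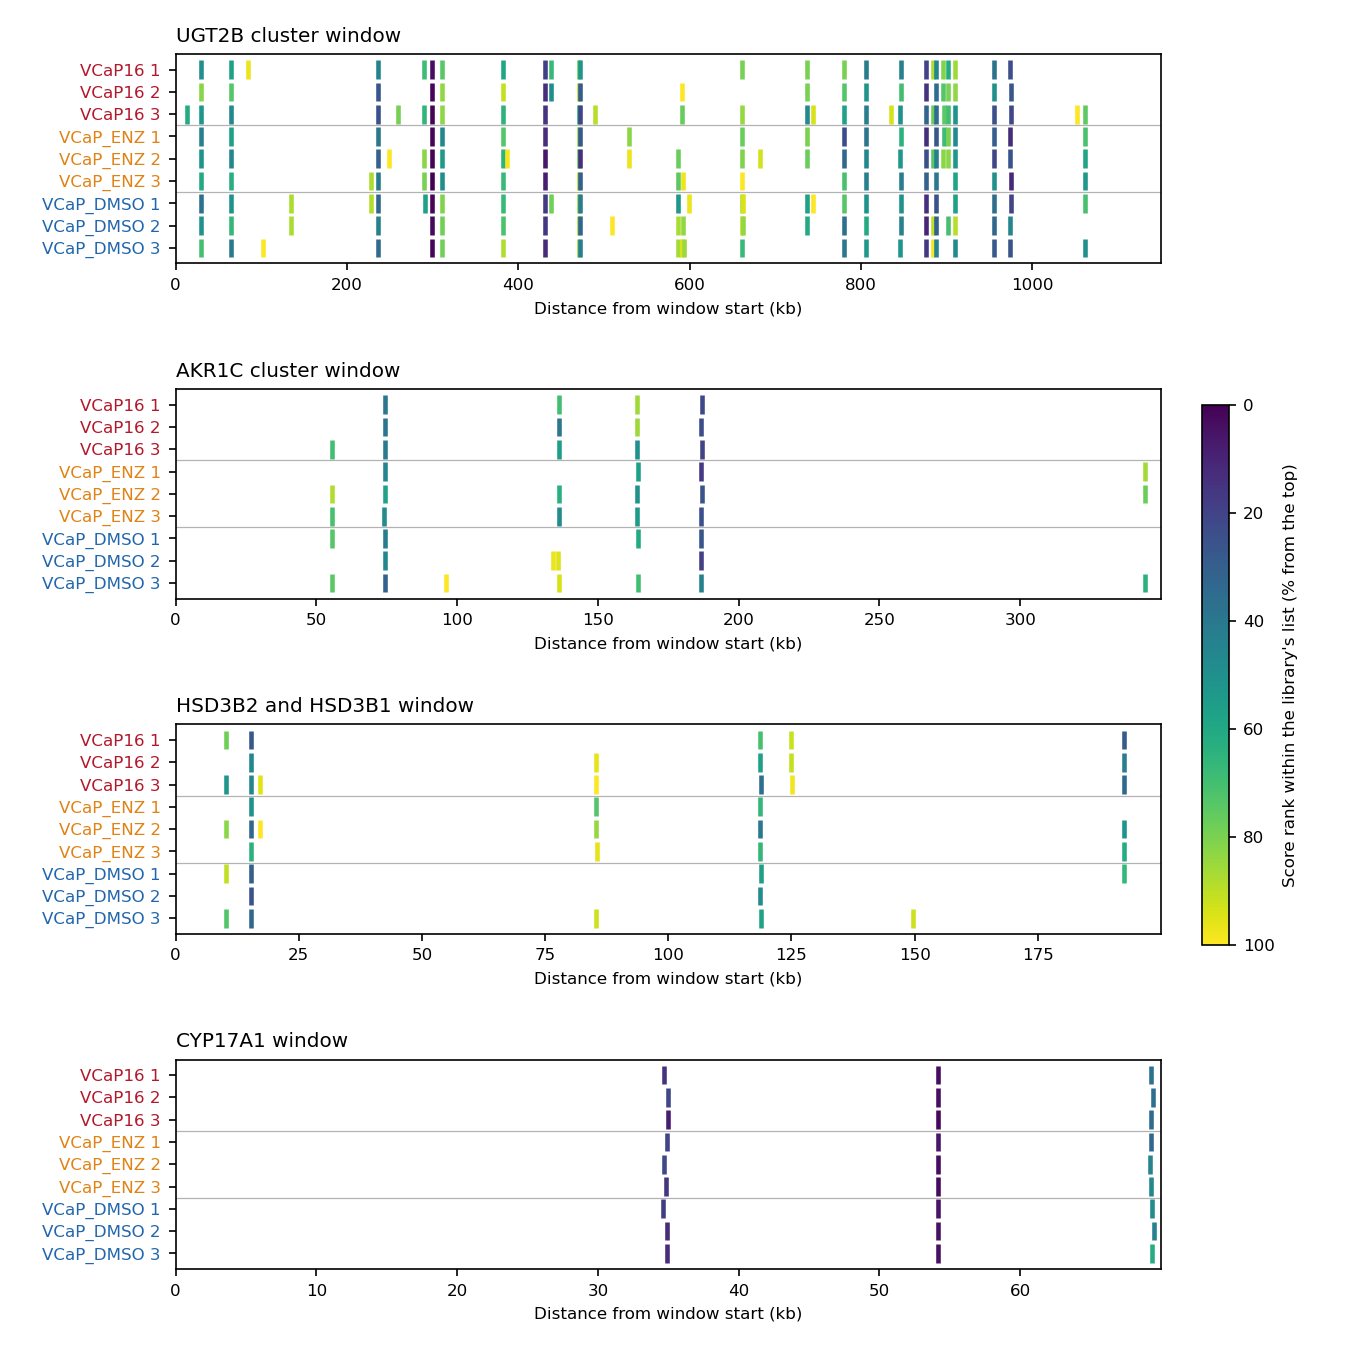
Calls in the 4 windows. Each tick is the midpoint of a region's peak in 1 library (rows, VCaP16 at the top, then VCaP_ENZ and VCaP_DMSO); the x axis is the distance from the window's start in kb, and colour gives the rank of the peak's score within its own library's list in % from the top. Ticks that run through all 9 rows are the 24 regions called in every library, and most isolated ticks are pale.

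Of the 66 regions, 24 (36.4%) were called in all 9 libraries, against 34.9% of all merged regions: 17 in the UGT2B window, 2 in the AKR1C window, 2 in the HSD3B window and 3 in the CYP17A1 window. Counting a call only where peaks covered at least 50% of the region left 10 regions (15.2%) called in every library, against 18.7% of all merged regions. A further 24 were called in 2 to 8 libraries, and 18 (27.3%) in 1 library only, against 22.6% of all merged regions. Of these 18, 6 were in VCaP16 replicate 3, 3 in VCaP_ENZ replicate 2 and 4 in VCaP_DMSO replicate 3. Over the genome these libraries held 26%, 12.5% and 7.2% of the regions called in 1 library. In all, 45 of the 66 (68.2%) were called by 2 or 3 libraries of at least 1 group, against 69.8% of all merged regions.

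Regions called more often also stood higher in the lists. The score rank of a peak within its own library is given in % from the top, so 1% is near the best peak. Its median was 38.3% for the 24 regions called in every library, 77.6% for those called in 2 to 8 and 97.1% for those called in 1. Over the genome the same medians were 30.2%, 76.9% and 92.3%. Ranks come only from libraries with a call, and a list holds no peak under its lowest score. The relation of calls to rank is therefore partly built into the measure. The constant regions of the windows were 861 bp wide at the median and those called in 1 library 229 bp. Over the genome these medians were 838 and 223 bp. A merged region spans all peaks joined in it, so each further call can only widen it.

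The highest-ranked region of all 4 windows was chr4:69598555-69599160 in the UGT2B cluster, called in every library. Its score rank was 3.73%, 1.59% and 0.943% in the VCaP16 libraries, 1.20%, 0.850% and 0.664% in the VCaP_ENZ libraries, and 1.51%, 2.37% and 1.39% in the VCaP_DMSO libraries. It thus stood at 3.73% or nearer the top in each library. Its peak was 521, 496 and 606 bp wide in VCaP16, 489, 573 and 531 bp in VCaP_ENZ, and 527, 476 and 516 bp in VCaP_DMSO, so the groups overlapped in width. The next region of this cluster by rank was chr4:69730197-69731397, with ranks of 18.4%, 12.7% and 15.2% in VCaP16, 12.6%, 6.56% and 8.50% in VCaP_ENZ, and 17.1%, 16.4% and 12.2% in VCaP_DMSO. The other 15 constant UGT2B regions had median ranks between 16.4% and 84.4%.

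The CYP17A1 window held 3 regions, and each of the 9 libraries called all 3. In RefSeq's order on GRCh38.p14, WBP1L comes before CYP17A1, and BORCS7 and AS3MT come after it. A region of this window therefore need not belong to CYP17A1. The region chr10:104613859-104614440 ranked at 3.22%, 3.66% and 2.08% in VCaP16, 6.16%, 3.23% and 3.07% in VCaP_ENZ, and 5.10%, 4.34% and 4.65% in VCaP_DMSO. The VCaP16 libraries were nearer the top than the VCaP_DMSO libraries, and the VCaP_ENZ libraries overlapped both. The region chr10:104594104-104595303 ranked at 14.5%, 21.3% and 7.82% in VCaP16, 20.1%, 21.5% and 15.4% in VCaP_ENZ, and 17.7%, 12.4% and 12.8% in VCaP_DMSO, and all groups overlapped.

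The region chr10:104628737-104629827, at the far edge of the window, had the lowest unadjusted p for width among the 24 regions called in every library. Its peak measured 812, 795 and 861 bp in VCaP16, 748, 935 and 796 bp in VCaP_ENZ, and 752, 634 and 483 bp in VCaP_DMSO. All VCaP16 peaks were wider than all VCaP_DMSO peaks, and the narrowest VCaP_ENZ peak, 748 bp, lay just under the widest VCaP_DMSO peak, 752 bp. With widths on a log2 scale, centred on each library's median, the difference was 0.39 ± 0.15 (SE) for VCaP16 minus VCaP_DMSO (limma, adjusted p = 0.572) and 0.45 ± 0.15 for VCaP_ENZ minus VCaP_DMSO (adjusted p = 0.626). Neither passed the threshold. Leaving out 1 library at a time gave 0.25 to 0.49 and 0.31 to 0.56, with the lowest value of each without VCaP_DMSO replicate 3, the library with the narrowest peak.

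In the AKR1C window 2 regions were called in every library. The region chr10:5136349-5137175 ranked at 22.2%, 23.2% and 20.5% in VCaP16, 17.5%, 25.7% and 24.9% in VCaP_ENZ, and 26.8%, 18.8% and 43.5% in VCaP_DMSO. The VCaP_DMSO libraries spread most, and all groups overlapped. The region chr10:5023941-5024693 ranked at 39.8%, 38.7% and 41.4% in VCaP16, 45.9%, 57.5% and 48.4% in VCaP_ENZ, and 41.1%, 46.8% and 31.2% in VCaP_DMSO. The VCaP_ENZ libraries stood lower in their lists than the VCaP16 libraries here, but the groups overlapped on the common ranking given further on. The other 6 regions were called in 1 to 8 libraries. Of these, 2 were named after their values were seen. The region chr10:5085714-5086404 ranked at 69.7%, 39.8% and 55.1% in VCaP16, 63.5% and 48.0% in 2 VCaP_ENZ libraries, and 94.8% and 93.8% in 2 VCaP_DMSO libraries. The region chr10:5113620-5114390 went another way, at 85.9%, 85.3% and 50.1% in VCaP16, 57.2%, 50.7% and 54.3% in VCaP_ENZ, and 60.6% and 69.8% in 2 VCaP_DMSO libraries.

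In the HSD3B window 2 regions were called in every library. The region chr1:119915190-119915570 ranked at 27.2%, 46.0% and 46.3% in VCaP16, 50.4%, 32.6% and 63.8% in VCaP_ENZ, and 29.5%, 25.7% and 33.1% in VCaP_DMSO. Libraries of VCaP16 and VCaP_ENZ mostly stood lower than those of VCaP_DMSO, and the groups overlapped in these ranks within the whole list. Among the regions called in every library alone, a common ranking described further on, it stood at 46.3%, 71.6% and 81.1% in VCaP16, 74.9%, 59.0% and 86.4% in VCaP_ENZ, and 50.3%, 41.9% and 52.1% in VCaP_DMSO. There all VCaP_ENZ libraries lay below all VCaP_DMSO libraries, and VCaP16 overlapped both. The region chr1:120018468-120018922 ranked at 70.4%, 56.4% and 35.9% in VCaP16, 66.2%, 39.9% and 66.2% in VCaP_ENZ, and 56.1%, 47.3% and 58.2% in VCaP_DMSO, and all groups overlapped. Constant regions were narrower here, with a median region width of 418 bp against 897 bp in the UGT2B window.

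The number of regions called per library was then compared between groups. Over all windows it was 37, 34 and 46 in VCaP16 (39 ± 6.24), 33, 44 and 35 in VCaP_ENZ (37.3 ± 5.86), and 39, 35 and 39 in VCaP_DMSO (37.7 ± 2.31; SD, n = 3 each). The group ranges overlapped. The difference was 1.33 regions for VCaP16 minus VCaP_DMSO (two-sided exact permutation p = 0.9), -0.333 for VCaP_ENZ minus VCaP_DMSO (exact p = 1) and 1.67 for VCaP16 minus VCaP_ENZ (exact p = 0.6). Against both VCaP groups together, 6 libraries, VCaP16 differed by 1.5 regions (exact permutation p = 0.738). Such exact tests of 3 against 3 libraries cannot go below p = 0.1, and those of 3 against 6 not below 0.0119. Without VCaP16 replicate 3, the longest list, VCaP16 minus VCaP_DMSO was -2.17, and with the same number of peaks from every list it was -1.67.

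By window, the UGT2B window had 26 ± 4.58 regions per VCaP16 library, 25 ± 3.46 per VCaP_ENZ library and 26 ± 2 per VCaP_DMSO library. The AKR1C window had 4.33 ± 0.577, 5 ± 1 and 5 ± 1.73 in the same order of groups, and the CYP17A1 window 3 in each library. The HSD3B window had 5, 5 and 7 regions in VCaP16 (5.67 ± 1.15), 3, 6 and 4 in VCaP_ENZ (4.33 ± 1.53), and 4, 2 and 5 in VCaP_DMSO (3.67 ± 1.53; SD, n = 3 each). VCaP16 libraries thus had as many calls as the highest VCaP_DMSO library or more. Over the genome a library called 60112 ± 6621 regions in VCaP16, 55017 ± 4708 in VCaP_ENZ and 54203 ± 2052 in VCaP_DMSO. In the HSD3B window the difference of VCaP16 from VCaP_DMSO was 2 regions (exact permutation p = 0.3), that from VCaP_ENZ 1.33 (exact p = 0.4) and that from all 6 VCaP libraries 1.67 (exact p = 0.167). With the same number of peaks from every list these differences were 0.667, 0.333 and 0.5. With only regions that had at least 2 calls in a group they were 2, 1.33 and 1.67 (exact permutation p = 0.1, 0.3 and 0.0714, unadjusted). Leaving out 1 library at a time gave 1.17 to 2.67, 0.667 to 2.17 and 1 to 2.07. Over the 20 comparisons made, 4 in each window and 4 in all windows, every adjusted p was 1.

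**Figure D2:**
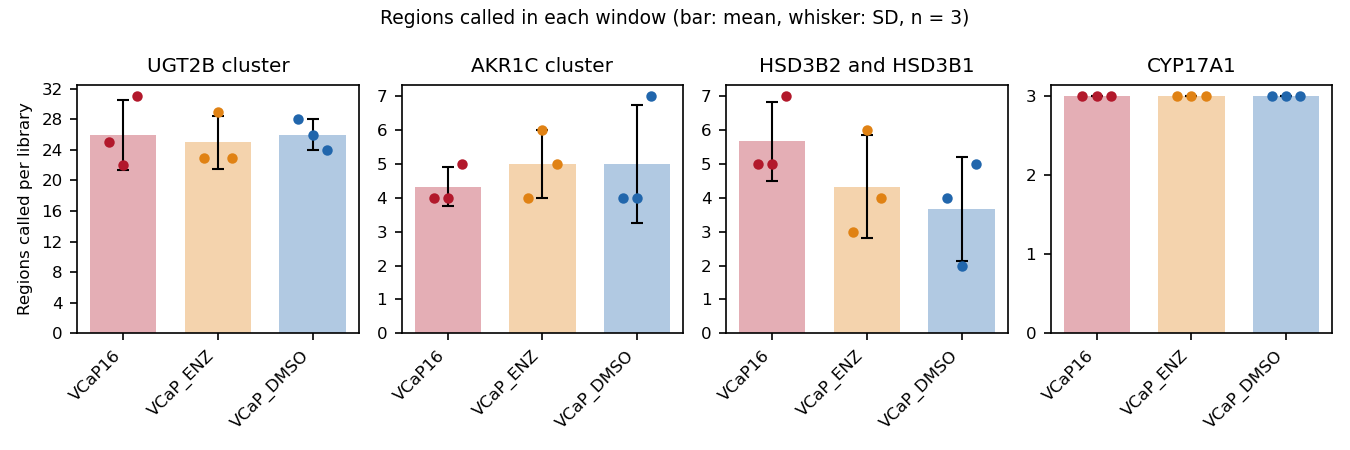
Regions called per library in each window. The y axis counts regions, starting at 0; bars are group means, whiskers the SD and points the 3 libraries of VCaP16, VCaP_ENZ and VCaP_DMSO from left to right. The groups overlap in the UGT2B, AKR1C and HSD3B windows, and every library has 3 regions in the CYP17A1 window.

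Few regions were called throughout one group and nowhere in another. In the windows 2 of 66 were called in 3 of 3 VCaP16 and 0 of 3 VCaP_DMSO libraries, against 1.63% of all merged regions, and 1 in all VCaP_DMSO and no VCaP16 libraries, against 0.532%. None was called in all VCaP_ENZ and no VCaP_DMSO libraries or the reverse, against 0.653% and 0.557% of all regions. Between VCaP16 and VCaP_ENZ, 1 region was called in each VCaP16 library and in no VCaP_ENZ library (1.13% of all regions) and none the other way (0.41%). Asking only for at least 2 of 3 against 0 of 3 libraries gave 2 regions for VCaP16 and not VCaP_DMSO (5.5% of all regions), 3 for the reverse (2.09%), 2 for VCaP_ENZ and not VCaP_DMSO (2.9%), 3 for the reverse (2.39%), 2 for VCaP16 and not VCaP_ENZ (4.59%) and 3 for the reverse (1.97%). Counts of 0 to 3 among 66 cannot be set apart from these background shares, and an exact test of one region with 3 libraries a group cannot go below p = 0.1.

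The region chr1:120024677-120025181 in the HSD3B window was called in 3 of 3 VCaP16 libraries, 0 of 3 VCaP_ENZ libraries and 0 of 3 VCaP_DMSO libraries. Its peaks ranked at 92.0%, 91.2% and 97.7%, near the bottom of their lists, with scores of 3.78, 4.26 and 2.80. The peaks of VCaP16 replicates 2 and 3 did not overlap: they ran from 120024710 to 120024921 and from 120024936 to 120025173, and only the longer peak of replicate 1 joined them. With a score of at least 5 no library called the region, and without VCaP16 replicate 1 it fell apart into 2 regions.

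The region chr4:70195878-70196645 in the UGT2B window was called in 3 VCaP16, 2 VCaP_ENZ and 0 VCaP_DMSO libraries. Its peaks were 440, 351 and 462 bp wide in VCaP16, at ranks of 81.1%, 73.3% and 74.3%, and 754 and 389 bp wide in VCaP_ENZ replicates 1 and 2, at 68.6% and 82.6%. The call pattern was the same with a score of at least 5 and with lists of equal length. When a peak had to cover at least 50% of the region, VCaP16 replicate 2, with 45.7% covered, no longer counted.

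The region chr4:69885882-69886397, also in the UGT2B window, had the opposite pattern, with 0 VCaP16, 2 VCaP_ENZ and 3 VCaP_DMSO libraries. Its peaks ranked at 77.2% and 75.0% in VCaP_ENZ replicates 2 and 3, and at 53.0%, 87.5% and 86.6% in VCaP_DMSO. With a score of at least 5, only 1 VCaP_DMSO library kept it. In the plot of peak extents these 3 regions are seen to be covered by peaks of unequal length and position.

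**Figure D3:**
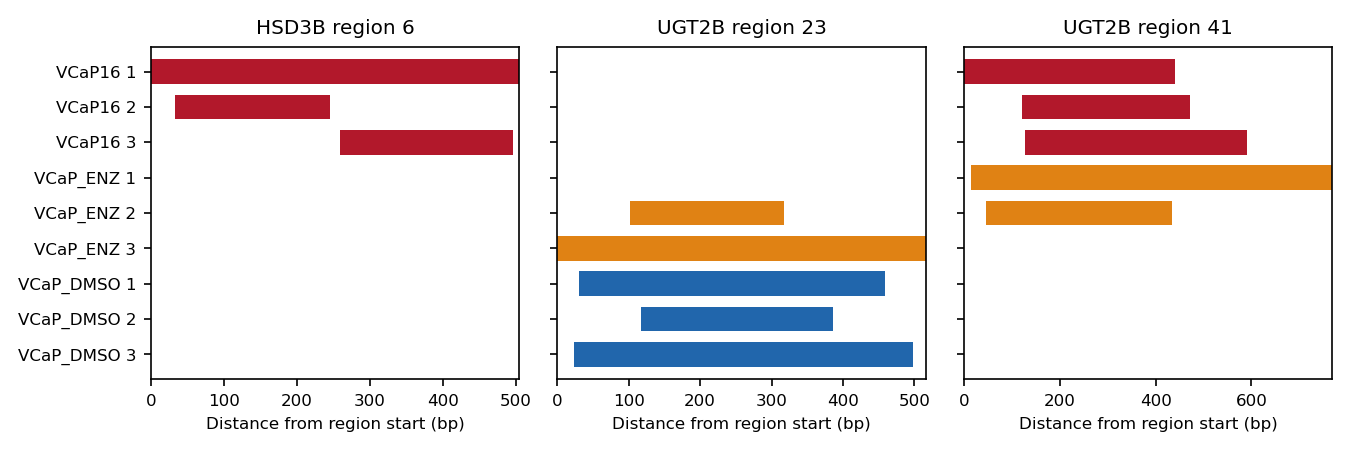
Peak extents in the 3 regions called in all libraries of one group and none of another. The x axis is the distance from the region's start in bp and each bar is a peak of 1 library (rows, VCaP16 at the top, then VCaP_ENZ and VCaP_DMSO). In HSD3B region 6 (505 bp long) the peaks of VCaP16 replicates 2 and 3 do not overlap; UGT2B region 23 has no VCaP16 peak and UGT2B region 41 no VCaP_DMSO peak.

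Regions with calls in one group only were as rare. By at least 2 libraries of one group and by no other library, 1 of 66 was called in VCaP16 (the HSD3B region above; 2.55% of all regions), 1 in VCaP_ENZ (0.748% of all regions) and 2 in VCaP_DMSO (0.846% of all regions). The VCaP_ENZ region was chr4:69828803-69829296, and the VCaP_DMSO regions were chr4:69434913-69435177 and chr4:69961967-69962322. These 3 regions were named after their values were seen. Each was called in 2 libraries, at ranks between 82.8% and 97.2%. The HSD3B window also held chr1:120092361-120092749, likewise named after its values were seen, with calls in 3 VCaP16, 2 VCaP_ENZ and 1 VCaP_DMSO libraries. It ranked at 28.7%, 41.8% and 33.9% in VCaP16, at 51.6% and 61.5% in VCaP_ENZ, and at 66.5% in the VCaP_DMSO library. It thus stood highest in its lists in VCaP16, and a library without a call has no rank.

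The 24 constant regions allowed a comparison of level, since each has a width and a score in every library. Each library's 33033 regions called in all 9 libraries were ranked by score, and the normal scores of these ranks were compared. Every library thus ranked the same regions, but list length enters their choice. With the same number of peaks from every list, 31870 regions were called in all 9 libraries, 23 of them in the windows. On this common ranking the 24 stood low: the median of their median ranks was 65.3% from the top, with 3 above 25% and 16 below 50%. Over the genome limma called 256 regions (0.775%) for VCaP16 against VCaP_DMSO, 0 for VCaP_ENZ against VCaP_DMSO and 1 (0.00303%) for VCaP16 against VCaP_ENZ at an adjusted p of 0.05. Of the 24 none was called in any of these comparisons. At an unadjusted p under 0.05 there were 0, 2 and 3 of the 24, against 14.2%, 10.8% and 12.3% of all common regions. For width no region of the genome was called (0% in each comparison), and 1, 2 and 0 of the 24 had an unadjusted p under 0.05, against 7.74%, 6.96% and 6.91% of all.

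The direction of the 24 was also described, without a test. The median difference in normal score was -0.10 for VCaP16 minus VCaP_DMSO (8 above 0), 0.06 for VCaP_ENZ minus VCaP_DMSO (13 above 0) and -0.15 for VCaP16 minus VCaP_ENZ (8 above 0), where a negative value means a place nearer the bottom in the group named first. Over all common regions the medians were -0.02, -0.00411 and -0.00117, with 48.2%, 49.4% and 49.9% above 0. For log2 width the medians of the 24 were -0.09, 0.09 and -0.14 in the same comparisons, with 9, 15 and 3 above 0, and those of all regions -0.02, -0.0034 and -0.01, with 46.5%, 49.4% and 47.9% above 0. The sizes of these medians moved with single libraries. Without 1 library the median in normal score was -0.154 to -0.0775 for VCaP16 minus VCaP_DMSO, 0.0207 to 0.137 for VCaP_ENZ minus VCaP_DMSO and -0.189 to -0.0365 for VCaP16 minus VCaP_ENZ. The first reached -0.154 without VCaP_DMSO replicate 1. The next was 0.0207 and 0.0292 without VCaP_DMSO replicates 2 and 1, 0.0229 without VCaP_ENZ replicate 1 and 0.137 without VCaP_ENZ replicate 3. The last was -0.0365 without VCaP16 replicate 2. The median in log2 width was -0.113 to -0.023 for VCaP16 minus VCaP_DMSO and 0.0442 to 0.116 for VCaP_ENZ minus VCaP_DMSO. It was -0.023 without VCaP16 replicate 2 and -0.056 without VCaP_DMSO replicate 2 in the first of these, and 0.0442, 0.0481 and 0.0497 without VCaP_DMSO replicates 1, 2 and 3 in the other. For VCaP16 minus VCaP_ENZ it was -0.0531 with 10 of 25 above 0 without VCaP16 replicate 2, -0.249 with 4 of 24 above 0 without VCaP16 replicate 3, and -0.0767 with 6 of 24 above 0 when widths were not centred. Without centring the VCaP16 minus VCaP_DMSO median was -0.0516. Comparisons with VCaP_DMSO share its libraries, and likewise those with VCaP16 or VCaP_ENZ.

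Groups that did not overlap in common rank were counted next. All VCaP16 libraries stood above all VCaP_DMSO libraries in 2 of the 24 (10.1% of all common regions), both in the CYP17A1 window, and below them in 0 (9.8%). All VCaP_ENZ libraries stood above all VCaP_DMSO libraries in 3 (8.27%) and below in 1 (7.52%). All VCaP16 libraries stood above all VCaP_ENZ libraries in 0 (8.59%) and below in 4 (8.99%), all of these in the UGT2B window. In width the counts were 1 (6.1%) wider and 0 (6.74%) narrower for VCaP16 against VCaP_DMSO, 1 (5.53%) and 0 (5.48%) for VCaP_ENZ against VCaP_DMSO, and 0 (5.7%) and 1 (6.19%) for VCaP16 against VCaP_ENZ. Widths here are centred on the library's median. The region at the far edge of the CYP17A1 window had overlapping widths in bp, yet was the 1 region counted for VCaP_ENZ against VCaP_DMSO.

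The region with the lowest p in the windows was chr4:69610440-69611612 in the UGT2B cluster. Among the common regions it stood at 93.7%, 97.4% and 99.1% from the top in VCaP16, 69.9%, 85.5% and 72.6% in VCaP_ENZ, and 97.5%, 95.6% and 95.4% in VCaP_DMSO. The VCaP_ENZ libraries stood above all others, and VCaP16 and VCaP_DMSO overlapped near the bottom. The difference in normal score was 1.05 ± 0.24 (SE) for VCaP_ENZ minus VCaP_DMSO (limma, adjusted p = 0.187) and -1.22 ± 0.24 for VCaP16 minus VCaP_ENZ (adjusted p = 0.114). Over the other settings the adjusted p ran from 0.175 to 0.353 for VCaP_ENZ minus VCaP_DMSO and from 0.122 to 0.233 for VCaP16 minus VCaP_ENZ. With the same number of peaks from every list the region was no longer called in all 9 libraries. The scores behind these ranks were 6.72, 5.43 and 5.36 in VCaP16, 12.9, 11.8 and 11.8 in VCaP_ENZ, and 6.37, 6.12 and 5.94 in VCaP_DMSO. The peak was 355, 603 and 581 bp wide in VCaP16, 492, 830 and 851 bp in VCaP_ENZ, and 484, 648 and 217 bp in VCaP_DMSO, so the groups overlapped in width. The peaks of VCaP16 replicates 1 and 2 did not overlap: they ran from 69611060 to 69611414 and from 69610440 to 69611042. Ranks of this merged region therefore need not describe the same stretch in each library.

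**Figure D4:**
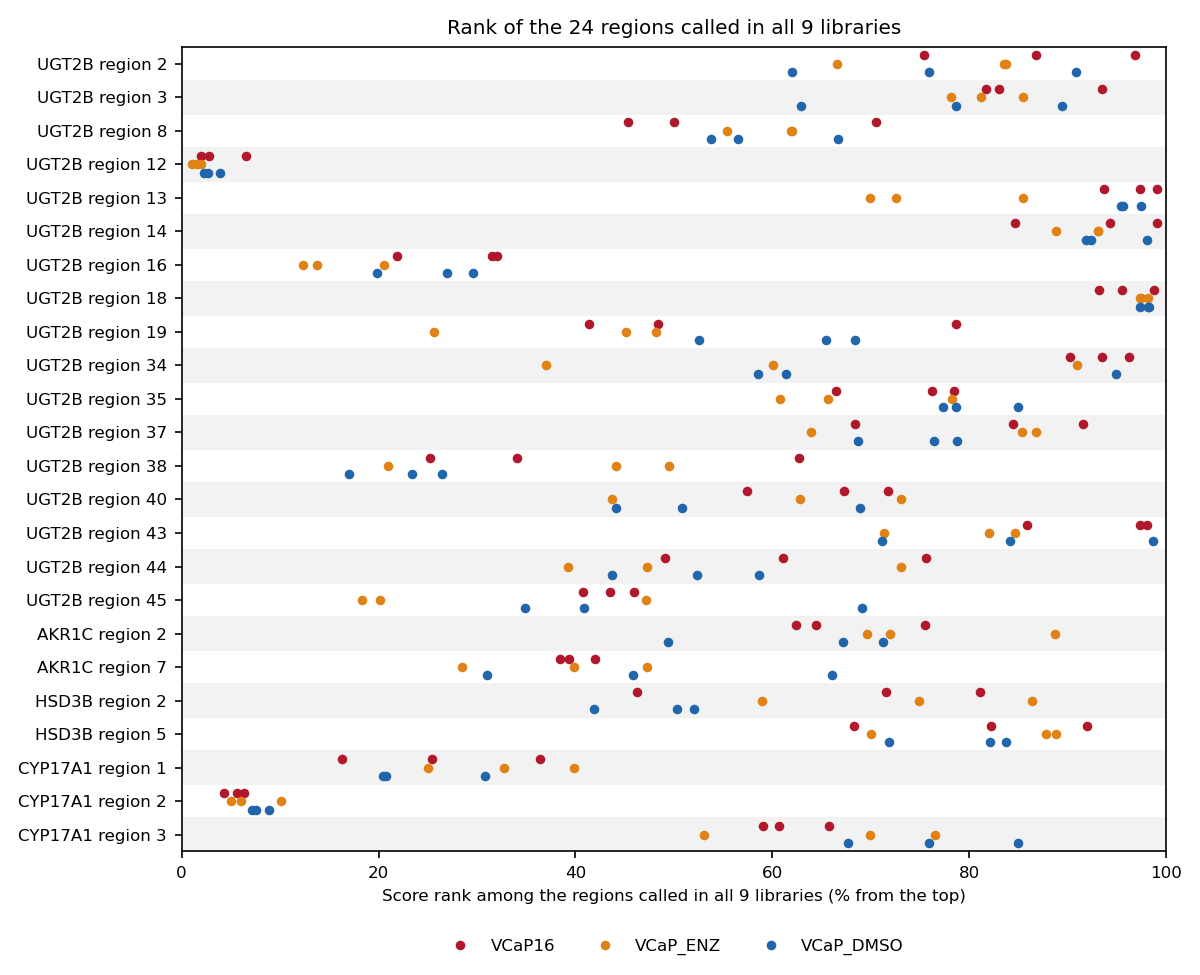
Common rank of the 24 regions called in every library. The x axis is the rank of the score in % from the top among the regions called in all 9 libraries, and the rows are regions numbered by position in their window, each with 3 points a group for VCaP16 (uppermost), VCaP_ENZ and VCaP_DMSO. In UGT2B region 13 the VCaP_ENZ points lie between 69.9% and 85.5%, apart from the other libraries; in most rows the groups overlap.

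A few more of the constant regions had an unadjusted p under 0.05, and none passed after adjustment. For chr1:119915190-119915570 the normal score differed by -0.71 ± 0.29 (SE) for VCaP_ENZ minus VCaP_DMSO (limma, adjusted p = 0.413). For chr4:70080284-70081020 it differed by -1.11 ± 0.45 for VCaP16 minus VCaP_ENZ (adjusted p = 0.352), where the common rank was 96.2%, 93.5% and 90.3% in VCaP16 against 37.0%, 60.1% and 91.0% in VCaP_ENZ, so that VCaP_ENZ replicate 3 overlapped VCaP16. This difference was -0.73 without VCaP_ENZ replicate 1 and -1.55 without VCaP_ENZ replicate 3. For chr4:69730197-69731397, the second region of the UGT2B cluster by rank, it differed by -0.45 ± 0.19 for VCaP16 minus VCaP_ENZ (adjusted p = 0.369), with all 3 VCaP16 libraries below all VCaP_ENZ libraries. In width, chr4:70273973-70274769 differed by 0.49 ± 0.19 for VCaP_ENZ minus VCaP_DMSO (adjusted p = 0.684), with 614, 607 and 754 bp in VCaP_ENZ against 454, 429 and 554 bp in VCaP_DMSO. These widths in bp did not overlap, but once centred on the library's median they did.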

How the data were processed

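Peak lists of 9 ATAC-seq libraries were used, with 1 list for each; replicates had not been pooled before peak calling. Per the labels' protocols, cells of the bulk assay were fixed with 1% formaldehyde for 10 minutes and tagmented with Tn5; the text goes on to a 10x single-cell protocol and does not tie it to any list, and the lists were treated as bulk. Per the submitters' processing notes the build was hg19, and the tools were MACS2 2.2.7.1, BWA 0.7.15-r1140 and HOMER 3.12. For read filters, the Tn5 shift and the handling of reads that map to several places, the parameters are not given in the sources used here. Each deposited score is the authors' own value for a peak, at least 2 in every list, and served only for ranks and minimums inside 1 list. Depth is unknown, so no interval on a level could be given.

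Only peaks on chromosomes 1 to 22 and X entered (0.242% to 0.295% of a list lay elsewhere) and merged at an overlap of at least 1 bp; a library called a region if any of its peaks shared at least 1 bp with it. Regions called per library went into exact permutation tests over libraries, two-sided, with Benjamini-Hochberg adjustment over 20 comparisons. Widths and score ranks of the 33033 regions called in all 9 libraries were compared with limma 3.58.1 in R 4.3.3, with 3 group means, 1 shared spread and Benjamini-Hochberg adjustment over all of them at 0.05. On simulated data of 33033 regions, 200 were shifted and the comparison tested was VCaP16 minus VCaP_DMSO. The width test recovered 0% at a 1.41-fold change, 38.5% at 2-fold and 86.5% at 4-fold. The rank test recovered 0% at a shift of 1 in normal score and 86.5% at a shift of 2. Python 3.11.15, numpy 2.4.6, pandas 2.3.3, Biopython 1.88 (global alignment of promoters) and matplotlib 3.10.9 were used.

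Regions are named where a group called them 3 times and another group 0 times, or where all 9 libraries called them. They are also named where they had the best median rank of their window among regions with at least 2 calls in a group. A few more were named after their values were seen, marked as such, and the others are given as counts and ranges. The members, windows and lists were chosen with earlier results of these data known. Other settings were a score of at least 5, lists trimmed to their 53646 best peaks, coverage of at least 50% of the region, only regions with at least 2 calls in a group, calls per 10000 peaks, at least 2 of 3 against 0 of 3 libraries, widths without centring, untransformed ranks, a replicate block and leaving out each library. Gene assignment, peak sequence and mappability on hg19 were not analysed here.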

Additional observations from a re-analysis of the deposited data

How the results depend on the processing

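The differences in regions called per library over all windows turned sign easily. Exact tests between 2 groups cannot go below p = 0.1 in any setting. Only VCaP16 against both VCaP groups together could reach p under 0.05, and it did not in any setting. With lists of equal length, the difference was -1.67 regions for VCaP16 minus VCaP_DMSO, -0.667 for VCaP16 minus VCaP_ENZ and -1.17 for VCaP16 minus all 6 VCaP libraries. With coverage of at least 50% of the region it was -0.667 for VCaP16 minus VCaP_DMSO and -0.167 for VCaP16 minus all 6. Per 10000 peaks of the library it was -0.468 for VCaP16 minus VCaP_DMSO, -0.253 for VCaP16 minus VCaP_ENZ and -0.361 for VCaP16 minus all 6. VCaP_ENZ minus VCaP_DMSO was 4.33 with a score of at least 5 and 0.667 with only regions that had at least 2 calls in a group. Leaving out 1 library at a time gave -2.17 to 3.83 for VCaP16 minus VCaP_DMSO, -3.67 to 2.33 for VCaP_ENZ minus VCaP_DMSO, -1.83 to 5 for VCaP16 minus VCaP_ENZ and -2 to 4 for VCaP16 minus all 6. Without VCaP16 replicate 3 the values were -2.17, -1.83 against VCaP_ENZ and -2 against all 6. Without VCaP_ENZ replicate 1, VCaP16 minus VCaP_ENZ was -1 and VCaP_ENZ minus VCaP_DMSO 2.33. VCaP_ENZ minus VCaP_DMSO was 0.833 without VCaP_ENZ replicate 3 and 0.333 without VCaP_DMSO replicate 1 or 3. In the HSD3B window, VCaP_ENZ minus VCaP_DMSO was -0.167 without VCaP_ENZ replicate 2 or VCaP_DMSO replicate 2. In the UGT2B window, VCaP_ENZ minus VCaP_DMSO was 2.67 with a score of at least 5. Leaving out 1 library there gave -2.5 to 2 for VCaP16 minus VCaP_DMSO, -3 to 0.5 for VCaP_ENZ minus VCaP_DMSO and -1.5 to 3 for VCaP16 minus VCaP_ENZ, with -1.5 without VCaP16 replicate 3. In the AKR1C window, VCaP16 minus VCaP_DMSO was 0.333 with a score of at least 5 and without VCaP_DMSO replicate 3. The cause of these turns was not tested.

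The number of regions called in all VCaP16 and no VCaP_DMSO libraries was 1 with lists of equal length (1.3% of all regions) and 1 with coverage of at least 50% (1.85%). For all VCaP_DMSO and no VCaP16 libraries it was 0 with a score of at least 5 (0.607%). For all VCaP16 and no VCaP_ENZ libraries it was 0 with a score of at least 5 (1.34%), with lists of equal length (0.96%) and with coverage of at least 50% (1.43%). For all VCaP_ENZ and no VCaP16 libraries it was 1 with lists of equal length (0.787%), and for all VCaP_DMSO and no VCaP_ENZ libraries it was 1 with coverage of at least 50% (0.682%). Asking for at least 2 of 3 against 0 of 3 libraries gave 2 for VCaP_ENZ and not VCaP_DMSO (2.9%), 2 for VCaP16 and not VCaP_ENZ (4.59%), and 3 each for VCaP_DMSO and not VCaP16 (2.09%), VCaP_DMSO and not VCaP_ENZ (2.39%), and VCaP_ENZ and not VCaP16 (1.97%). Leaving out 1 library gave 1 to 3 regions for VCaP16 and not VCaP_DMSO (1.65% to 3.39% of all regions) and for VCaP_DMSO and not VCaP16 (0.54% to 1.36%), and 0 to 2 in the other 4 directions (0.417% to 2.67%).

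No region of the windows passed limma's threshold under any setting. Over the genome, the 256 regions called for the rank of VCaP16 against VCaP_DMSO became 6 to 214 without 1 library. Deviations of same-numbered libraries correlated between -0.031 and 0.056 in width and between -0.006 and 0.045 in rank. For differently numbered libraries the ranges were -0.064 to 0.062 and -0.034 to 0.017. Between VCaP_ENZ and VCaP_DMSO in rank, same-numbered pairs (0.011, 0.045 and 0.023) lay above the other pairs (0.010 at most). Whether the replicate numbers pair the libraries was therefore not settled. With the replicate number as a block, the difference over all windows was 1.33 regions for VCaP16 minus VCaP_DMSO (exact p = 1 within replicate numbers, where 0.25 is the smallest possible), 23 regions of the genome were called in rank, and no region of the windows was.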
